A study of Homo sapiens with 4 samples.

Results

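Angiogenic factors are secreted proteins that act on blood or lymphatic vessels, and 10 of their genes were followed here in the inner and outer parts, core and invasion zone, of MV3 spheroids. The genes were VEGFA, its relatives VEGFB, VEGFC and PGF, the angiopoietins ANGPT1 and ANGPT2, the angiopoietin-like ANGPTL4, and ADM, EDN1 and STC1. They were found by symbol among 56304 gene rows, and all 10 were in the table. The set was chosen by the values of VEGFA in these same libraries, where its level in CPM, the counts scaled to a library total of 1000000, was higher in the core, and the other 9 were added by name as its family or as secreted factors of like function. The zone difference of the 10 genes is therefore given as a description and without a test.

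MV3 is an established human melanoma line, and the cells carried the nuclear label H2B-GFP in both zones. Spheroids of 50000 cells had been placed in collagen I, and they were dissected on day 2. A punch of 1 mm gave the core, and one of 3 mm then gave the invasion zone around it. Each zone had 2 libraries, given as replicates 1 and 2, without further treatment. The punch cut vertically, so cells that had invaded above or below the spheroid could stay in the core sample, and RNA was amplified from small amounts before sequencing. The sources used here do not say whether the replicates came from separate cultures, so p-values measure only the spread between these libraries, which may be technical.

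In solid tissue, VEGF family proteins bind receptor tyrosine kinases on endothelial cells. VEGFA drives the sprouting of blood vessels, VEGFC mainly that of lymphatic vessels, and PGF and VEGFB bind the receptor FLT1. The angiopoietins act through the receptor TEK, adrenomedullin through CALCRL with a RAMP partner, and endothelin-1 through EDNRA and EDNRB. Transcription of VEGFA, ADM and ANGPTL4 is known to rise when oxygen is low, through hypoxia-inducible factors (HIF) that bind short DNA elements holding ACGTG or GCGTG.

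The libraries held between 11789243 and 37591782 counts, and both libraries of replicate 2 were the shallower ones, with 14983135 counts in the core and 11789243 in the invasion zone. A floor of 3 counts corresponded to between 0.0798 and 0.254 CPM. Mitochondrial transcripts took 1.06% to 1.72% of the counts. Of the pigment cell markers, SOX10 and TYR had 0 counts in every library, and MLANA, PMEL and MITF did not exceed 3.39 CPM, so the defining melanocyte genes were absent or low in these melanoma cells. AXL, a receptor of dedifferentiated melanoma, had 623 and 633 CPM in the core and 1220 and 1130 CPM in the invasion zone. The endothelial genes CDH5, VWF and CLDN5 did not exceed 0.43 CPM. The 7 endothelial markers summed to 27.3 and 16.6 CPM in the core and 15.2 and 7.89 CPM in the invasion zone, of which PECAM1 gave 17.8, 7.48, 5.21 and 0.93 CPM, in the same order. The 5 fibroblast markers summed to 95.7 and 59.7 CPM in the core and 38.5 and 14.2 CPM in the invasion zone, nearly all of it PDGFRA, while DCN and LUM had 0 counts. The 5 leukocyte markers summed to between 0.339 and 1.68 CPM, with CD3E at 0 counts. The endothelial, fibroblast and leukocyte sums were thus higher in both core libraries, like VEGFA. The study's methods name no cells other than MV3 in the spheroids, so these sums are transcript levels of marker genes and not a measure of other cell types. Their part in the results was not tested.

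The pattern of VEGFA was shared by some of the other factors and not by others. Of the 9 factors other than VEGFA, 5 were higher in the core within each replicate number, namely PGF, ADM, STC1, ANGPTL4 and VEGFB, and the other 4, EDN1, ANGPT2, VEGFC and ANGPT1, were lower in the core in both. Over the 15529 genes tested, 40.2% were higher in the core within each replicate and 40.5% were lower. Both core libraries exceeded both invasion zone libraries for 4 of the 9 (30.0% of all genes tested), both lay below for 3 (28.3% of all genes tested), and the zones overlapped for ANGPTL4 and ANGPT2. The median log2 fold change of core over invasion zone was 0.71 over the 9 factors and 0.01 over all genes tested. With VEGFA, by whose core excess the set was chosen, the 10 genes ranged from -3.64 to 2.01. Because the samples were bulk RNA, a smaller share of expressing cells and less RNA per cell cannot be told apart.

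The zones were compared across all genes by the quasi-likelihood test of edgeR with Benjamini-Hochberg adjustment, with a call at an adjusted p under 0.05 and a change of at least 2-fold. It called 0 of the 15529 genes (0.00%), with 0.103 as the lowest adjusted p. Without adjustment, at the same fold change, 995 genes were higher in the core and 495 in the invasion zone. Limma voom also called 0 genes. DESeq2, the package the study used, here called 548 genes higher in the core (3.53%) and 354 higher in the invasion zone (2.28%). These counts come from the re-analysis and are not those the study reported. The edgeR result also turned on how the replicate numbers were used. By the study's methods the invasion zone was taken from the gel that had held the core, but nothing ties a number to 1 spheroid, and with the number as a block the same test called 1147 genes higher in the core (7.39%) and 588 higher in the invasion zone (3.79%).

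**Figure D1:**
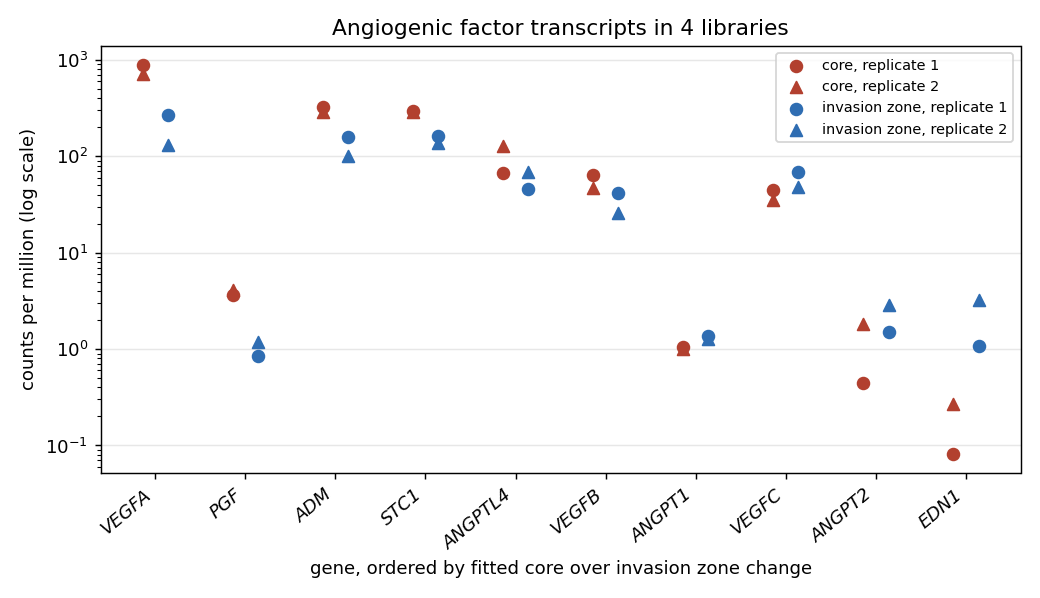
CPM (log axis) of the 10 angiogenic factor genes, with 1 point per library, core in red and invasion zone in blue, circles for replicate 1 and triangles for replicate 2. From left to right the genes go from a core excess, with VEGFA and PGF nearly equal, to the invasion zone excess of EDN1, and the zones overlap for ANGPTL4 and ANGPT2.

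Among the VEGF ligands, VEGFA and PGF had nearly equal core excesses, larger than that of VEGFB, and VEGFC was lower in the core. VEGFA (ENSG00000112715, GRCh38 chromosome 6, 43770184 to 43786487) had 881 and 712 CPM in the core (replicates 1 and 2) and 267 and 131 CPM in the invasion zone. Every core value was above every invasion zone value, and the lower invasion zone value came from replicate 2. The core to invasion zone ratio was 3.30 in replicate 1 and 5.42 in replicate 2, and the fitted log2 fold change was 2.01 (standard error 0.36, 2 libraries per zone). It was 1.58 without invasion zone replicate 2 and 2.62 without invasion zone replicate 1. The gene shares 188 exonic bases with a long noncoding RNA on the opposite strand, and the strand setting of the counting is not given in the sources used here.

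PGF, placental growth factor (ENSG00000119630, chromosome 14, 74941834 to 74955626), came close to VEGFA in its fold difference, with 3.60 and 4.07 CPM in the core and 0.851 and 1.19 CPM in the invasion zone. This rested on 192 counts in the core and 46 in the invasion zone. The ratio was 4.23 in replicate 1 (exact 95% interval 2.86 to 6.44) and 3.43 in replicate 2 (1.90 to 6.64), and the log2 fold change was 2.00 (standard error 0.36). These intervals cover counting error only, and amplified reads without molecular identifiers are not independent molecules.

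VEGFB (ENSG00000173511, chromosome 11, 64234584 to 64239264) had 63.7 and 46.7 CPM in the core and 41.7 and 25.9 CPM in the invasion zone. The zones did not overlap, but the gap between the lowest core and the highest invasion zone value was small, and the log2 fold change was 0.71 (standard error 0.29). VEGFC (ENSG00000150630, chromosome 4, 176683538 to 176792922) went the other way, with 44.4 and 35.5 CPM in the core and 68.1 and 48.5 CPM in the invasion zone. Its invasion zone excess was 1.53-fold in replicate 1 and 1.37-fold in replicate 2, a log2 fold change of core over invasion zone of -0.54 (standard error 0.23). The fifth ligand of the family, VEGFD, had 2 counts in the core and 9 in the invasion zone and was too low to be tested.

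**Figure D2:**
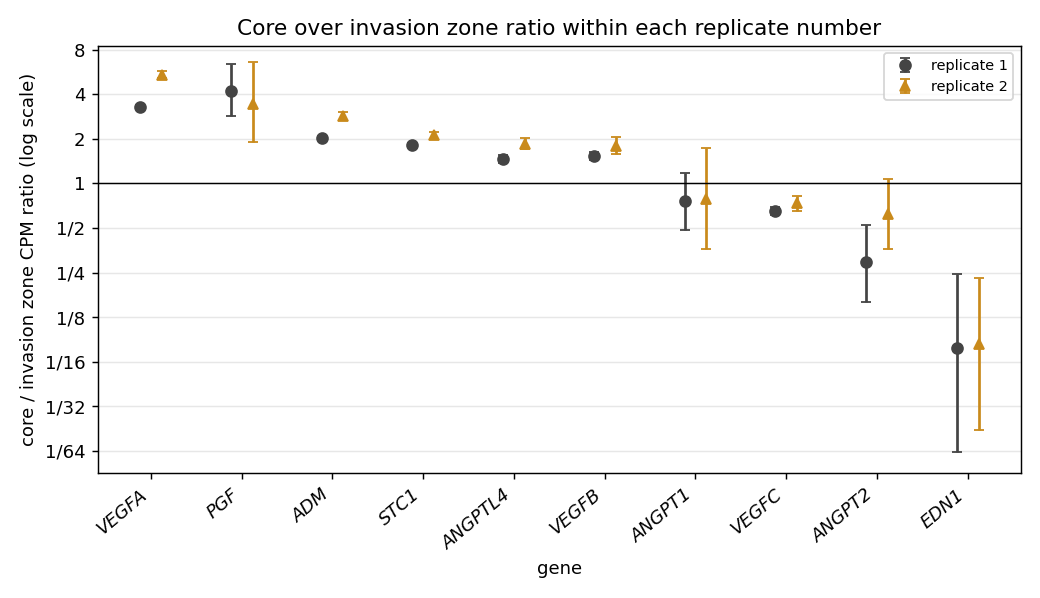
Ratio of core to invasion zone CPM (log axis) within replicate 1 (grey circles) and replicate 2 (orange triangles), with exact 95% intervals for counting error alone. The 6 genes on the left lie above 1 in both replicates and the 4 on the right below 1 in both, where the intervals of ANGPT1 in both replicates and of ANGPT2 in replicate 2 include 1.

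The peptide hormones adrenomedullin and stanniocalcin-1 followed VEGFA at a smaller fold. ADM (ENSG00000148926, chromosome 11, 10305073 to 10307397), which encodes a peptide that dilates vessels and tightens the endothelial barrier, had 324 and 289 CPM in the core and 159 and 102 CPM in the invasion zone. The zones were well separated, with ratios of 2.04 and 2.84 in replicates 1 and 2 and a log2 fold change of 1.24 (standard error 0.24). STC1 (ENSG00000159167, chromosome 8, 23841929 to 23854806), which encodes a secreted glycoprotein hormone, had 298 and 287 CPM in the core and 164 and 136 CPM in the invasion zone. The zones did not overlap, the ratios were 1.81 and 2.11, and the log2 fold change of 0.97 had the smallest standard error of the 10 genes, 0.16.

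ANGPTL4 (ENSG00000167772, chromosome 19, 8363289 to 8374370) encodes a secreted inhibitor of lipoprotein lipase that also acts on vessels. It had 66.9 and 127 CPM in the core and 45.8 and 68.5 CPM in the invasion zone. Here the replicates differed as much as the zones, since both replicate 2 libraries were the higher ones of their zone, and the second invasion zone library exceeded the first core library. Within the replicates the core was higher by 1.46-fold and 1.86-fold, the log2 fold change was 0.77 (standard error 0.34), and it fell to 0.25 without core replicate 2.

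The vasoconstrictor endothelin-1 showed the opposite pattern to VEGFA. EDN1 (ENSG00000078401, chromosome 6, 12290361 to 12297194) had 3 and 4 counts in the core and 40 and 38 in the invasion zone, which gave 0.0825 and 0.267 CPM in the core and 1.06 and 3.22 CPM in the invasion zone. The invasion zone was 12.9-fold higher in replicate 1 (exact 95% interval 4.11 to 65.2) and 12.1-fold higher in replicate 2 (4.35 to 46.6). Its log2 fold change of core over invasion zone was -3.64 (standard error 0.93), between -4.46 and -2.77 with 1 library left out. EDN1 passed the count filter through its invasion zone values, so that a gene at its core level would not have been tested.

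The angiopoietins were rare. ANGPT1 (ENSG00000154188, chromosome 8, 107249482 to 107498055), the activating ligand of TEK, had 1.05 and 1.00 CPM in the core and 1.38 and 1.27 CPM in the invasion zone. These rested on 53 and 67 counts, the intervals of the ratio included 1 in both replicates (0.484 to 1.17 and 0.358 to 1.73), and a zone difference was not detectable at this depth. ANGPT2 (ENSG00000091879, chromosome 8, 6499632 to 6563409), its context-dependent antagonist, had 0.440 and 1.80 CPM in the core and 1.49 and 2.88 CPM in the invasion zone. The zones overlapped, and the log2 fold change of -1.09 (standard error 0.72) became -0.16 without core replicate 1 and -2.17 without core replicate 2. ANGPT2 shares 658 of its 6794 exonic bases with MCPH1 on the opposite strand, which leaves its few counts uncertain.

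The replicates also differed from each other in a gene-specific way. In both zones EDN1 was higher in replicate 2 than in replicate 1, by 1.69 (core) and 1.60 (invasion zone) on the log2 scale. ANGPT2 was higher in replicate 2 by 2.03 and 0.95, and ANGPTL4 by 0.93 and 0.58. VEGFA was lower in replicate 2, by -0.31 in the core and -1.02 in the invasion zone, as was ADM, by -0.17 and -0.65. VEGFB was lower in replicate 2 by -0.45 and -0.69, and VEGFC by -0.32 and -0.49. STC1 differed by -0.05 and -0.27. For ANGPTL4, ANGPT2, VEGFB and VEGFC these differences between replicates came near to the size of the zone difference or beyond it in at least 1 zone. Replicate 2 was also the shallower one in both zones, and the part of depth in these values was not tested.

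The regions just before the start sites of these genes were searched for the core letters of the HIF-binding element, ACGTG and GCGTG, on both strands. RefSeq promoter sequences (GRCh38.p14), taken by symbol, were searched for 6 of the 10 genes, VEGFB, VEGFC, PGF, ANGPTL4, ADM and EDN1. No promoter sequence was searched for VEGFA, ANGPT1, ANGPT2 and STC1, so the result is limited to those 6. All 6 held 1 match within 250 bases before the start site, whereas 43.2% of the 35116 promoters in the table held either motif in a window of that length (ACGTG in 18.5% and GCGTG in 32.2%). The 6 include genes with a core excess and genes with an invasion zone excess. As every one of them held a match, its presence could not tell these directions apart, whatever the values. The windows were 49.2% (EDN1) to 82.8% (VEGFB) G or C, against a median of 58.0% in the table, and the part of base composition in the share was not tested. Where a gene had several start sites in the table, the one of the canonical transcript was used. The match began 101 bases before the start site in ADM, 162 in PGF, 59 in VEGFC, 123 in EDN1, 61 in VEGFB and 234 in ANGPTL4.

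To show both directions, 2 genes with a core excess, ADM (chr11:10304823-10305072, plus strand) and PGF (chr14:74955598-74955847, minus strand), are printed beside 2 with an invasion zone excess, VEGFC (chr4:176792923-176793172, minus strand) and EDN1 (chr6:12290111-12290360, plus strand). Each runs 5′ to 3′ along the strand of the gene and ends at the base before the start site, and the capitals mark the match, which reads CACGC or CACGT where it lies on the other strand.
ADM: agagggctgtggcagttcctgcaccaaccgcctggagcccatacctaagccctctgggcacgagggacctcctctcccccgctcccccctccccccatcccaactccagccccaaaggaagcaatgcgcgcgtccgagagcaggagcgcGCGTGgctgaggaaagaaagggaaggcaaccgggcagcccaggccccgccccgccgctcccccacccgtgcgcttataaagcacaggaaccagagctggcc
PGF: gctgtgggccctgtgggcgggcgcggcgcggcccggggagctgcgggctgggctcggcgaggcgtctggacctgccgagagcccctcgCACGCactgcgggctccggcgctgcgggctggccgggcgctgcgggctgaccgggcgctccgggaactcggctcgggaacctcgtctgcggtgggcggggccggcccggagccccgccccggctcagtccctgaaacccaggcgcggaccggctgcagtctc
VEGFC: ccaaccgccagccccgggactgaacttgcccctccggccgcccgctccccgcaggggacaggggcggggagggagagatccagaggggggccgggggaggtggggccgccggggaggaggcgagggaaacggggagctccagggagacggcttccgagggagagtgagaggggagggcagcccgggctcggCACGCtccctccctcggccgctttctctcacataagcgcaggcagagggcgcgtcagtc
EDN1: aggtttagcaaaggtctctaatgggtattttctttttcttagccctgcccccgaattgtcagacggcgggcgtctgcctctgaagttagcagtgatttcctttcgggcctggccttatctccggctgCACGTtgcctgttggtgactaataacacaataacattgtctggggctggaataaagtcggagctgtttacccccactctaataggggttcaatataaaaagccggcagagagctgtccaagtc
ADM carries GCGTG on the strand of the gene, PGF and VEGFC carry it on the other strand, and EDN1 carries ACGTG on the other strand. A match is not evidence of binding, and regions outside these windows were not searched.

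Levels of different genes can be compared only per length, as CPM per kilobase of exon (RPKM). With the union of all annotated exons as the length, the order of the mean core level was ADM (132 RPKM), STC1 (70.7), VEGFA (55.2), ANGPTL4 (39.2), VEGFB (28.0), VEGFC (15.3), PGF (0.661), ANGPT2 (0.165), ANGPT1 (0.144) and EDN1 (0.0859). Neighbours whose libraries overlapped were VEGFA and ANGPTL4, ANGPTL4 and VEGFB, and ANGPT2 and ANGPT1. In the invasion zone ADM (56.1 RPKM) and STC1 (36.3) were still the highest, and ANGPTL4 (23.1), VEGFC (22.3), VEGFB (17.1) and VEGFA (13.8) followed, each overlapping its neighbour. EDN1 (1.05), ANGPT2 (0.322), ANGPT1 (0.186) and PGF (0.176) were lowest.

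The place of VEGFA in this order depended on the length used. Its annotation holds 26 transcripts whose exons cover 14431 bases together, against 3609 bases in the canonical transcript. With canonical lengths, a choice made after the data were seen, VEGFA reached 244 and 197 RPKM in the core, overlapping ADM (217 and 194). In the invasion zone it reached 73.9 and 36.4 RPKM, overlapping both ADM and STC1. By the zone mean VEGFA so moved from the third to the first place in the core and from the sixth to the second in the invasion zone, places that its overlapping neighbours leave uncertain. The counts do not separate the splice forms of VEGFA.

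The make-up of the VEGF family, described without a test, differed between the zones under either length. Of the summed RPKM of VEGFA, VEGFB, VEGFC and PGF, the exon union gave VEGFA 55.0% and 56.5% in the core against 28.1% and 22.2% in the invasion zone, and VEGFC 15.3% and 15.5% against 39.6% and 45.3%. With canonical lengths VEGFA took 81.1% and 81.8% in the core and 57.9% and 49.9% in the invasion zone, and VEGFC 6.5% in either core library against 23.6% and 29.5% in the invasion zone. The share of VEGFA was lower and that of VEGFC higher in each invasion zone library than in each core library. VEGFA was chosen for its core excess, so its lower share in the invasion zone follows in part from that choice. The shares add to a whole, so a lower VEGFA share raises the others. VEGFC itself was higher in the invasion zone by 1.53-fold in replicate 1 and 1.37-fold in replicate 2. Which of VEGFA and VEGFC had the larger share in the invasion zone depended on the length.

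**Figure D3:**
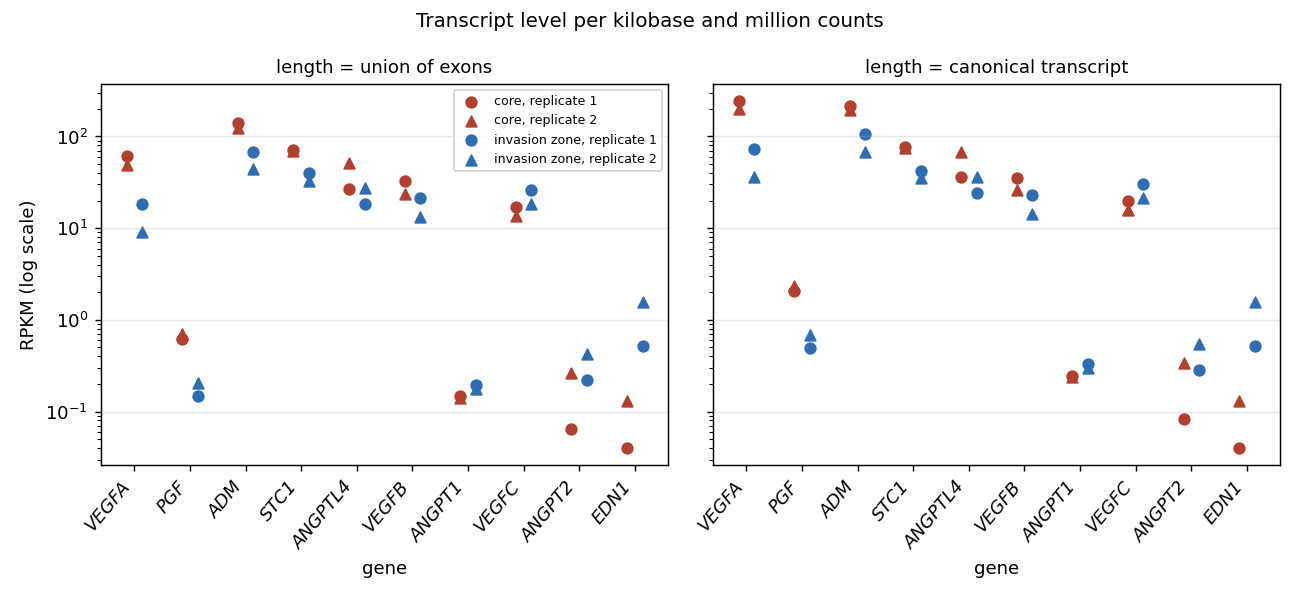
RPKM (log axis) of the 10 genes in each library, with the exon union (left) or the canonical transcript (right) as the gene length, core in red and invasion zone in blue. VEGFA lies below ADM and STC1 on the left and level with ADM in the core on the right.

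The receptors of these ligands had few or no counts. Of the VEGF receptors, KDR and FLT4 had 0 counts in every library and FLT1 had 4 counts in the core and 1 in the invasion zone. The co-receptors were present, with zone values close to each other. NRP1 had 1118 and 1018 CPM in the core and 1217 and 963 CPM in the invasion zone (log2 fold change -0.02, standard error 0.19, adjusted p = 0.964, edgeR), and NRP2 had 55.2, 63.1, 48.0 and 53.4 CPM in the same order (log2 fold change 0.23, adjusted p = 0.377). TEK had 3 counts, all in 1 core library, and the related TIE1 had 23 counts in the core and 9 in the invasion zone.

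On the adrenomedullin side, the receptor CALCRL had 2.17 and 2.07 CPM in the core and 1.78 and 1.70 CPM in the invasion zone (adjusted p = 0.616). Its partners RAMP2 and RAMP3 had 0 counts, RAMP1 27 counts in all and the scavenger ACKR3 5 counts. PAM, the enzyme that amidates adrenomedullin into its active form, had 753 and 687 CPM in the core and 392 and 324 CPM in the invasion zone. This difference had the direction of ADM, with a log2 fold change of 1.02 (standard error 0.17). It was not called by edgeR (adjusted p = 0.112), but was called by DESeq2 (adjusted p = 1e-04) and by edgeR with the replicate block (adjusted p = 0.000107).

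Of the genes around EDN1, ECE1 and ECE2 had enough counts to be tested. ECE1, the protease that releases endothelin-1 from its precursor, had 1673 and 1116 CPM in the core and 635 and 211 CPM in the invasion zone, opposite to EDN1 (log2 fold change 1.73, standard error 0.54). The edgeR test did not call ECE1 (adjusted p = 0.144), whereas DESeq2 (adjusted p = 0.00325) and edgeR with the replicate block (adjusted p = 0.00027) did. ECE2 had 23.6 and 25.8 CPM in the core and 24.7 and 26.8 CPM in the invasion zone (log2 fold change -0.05). The receptors EDNRA and EDNRB had 12 and 6 counts over the 4 libraries, and the other ligands EDN2 and EDN3 had 4 and 5.

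Further lists of related genes set the 10 factors in context. Together the 11 lists named 85 genes, of which 56 were tested. The edgeR test called 0 of the 56. DESeq2 called 14 higher in the core and 2 higher in the invasion zone, against 3.53% and 2.28% of all genes tested. With the replicate block edgeR called 19 and 3, against 7.39% and 3.79%. By either method, 10 of the genes called higher in the core were of the hypoxia-responsive list described below. Adjusted p-values given for list genes are from edgeR without the block unless named otherwise. Of 20 other secreted angiogenic factors, 15 were tested, 8 with a positive and 7 with a negative log2 fold change of core over invasion zone, a median of 0.26 and none called by edgeR. HGF, a ligand of the receptor MET, had 60 and 32 counts in the core against 24 and 1 in the invasion zone (adjusted p = 0.141, and 0.00718 with the replicate block). It passed the count filter through its core values, and its core to invasion zone ratio of 2.58 in replicate 1 (exact 95% interval 1.59 to 4.34) and 25.2 in replicate 2 (4.21 to 1030) left the size of the difference uncertain. ESM1, a secreted proteoglycan that endothelial cells make in response to VEGFA, had 18.9 and 51.9 CPM in the core against 79.2 and 165 CPM in the invasion zone (log2 fold change -1.79, adjusted p = 0.143). DESeq2 (adjusted p = 0.00434) and edgeR with the replicate block (adjusted p = 8.28e-05) called ESM1.

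Other genes of that list, chosen after their values were seen, had values toward either zone. ANG, a secreted ribonuclease, had 8.14 and 4.47 CPM in the core and 2.79 and 2.21 CPM in the invasion zone (log2 fold change 1.35, adjusted p = 0.137). TYMP, a thymidine phosphorylase, had a log2 fold change of 1.14 (adjusted p = 0.153, and 0.0411 by DESeq2), and PDGFD, with 127 counts in the core and 48 in the invasion zone, all 48 in replicate 1, had an adjusted p of 0.257. HBEGF, a ligand of the EGF receptor, had 14.4 and 37.2 CPM in the core and 43.9 and 66.7 CPM in the invasion zone (log2 fold change -1.11, adjusted p = 0.205). With the replicate block, edgeR called ANG, TYMP and HBEGF (adjusted p = 0.00255, 0.00237 and 0.000865). FGF2 had 54.1 and 50.3 CPM in the core and 69.5 and 77.8 CPM in the invasion zone (log2 fold change -0.48, adjusted p = 0.14). Its adjusted p was 0.108 by DESeq2 and 0.00655 by edgeR with the replicate block, with a change under the 2-fold minimum of a call. The chemokine CXCL8 had 190 and 172 CPM in the core and 193 and 209 CPM in the invasion zone (log2 fold change -0.14, adjusted p = 0.575). LEP, CXCL12 and NDP had 0 counts, and EPO 2 counts in all.

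Of 12 secreted angiogenesis inhibitors, 9 were tested, 6 positive and 3 negative, with a median of 0.50. VASH1, which feeds back on vessel growth, had 4.15 and 6.87 CPM in the core and 2.08 and 2.21 CPM in the invasion zone (log2 fold change 1.34, adjusted p = 0.126, and 0.046 by DESeq2). ADAMTS1, a protease that cleaves matrix proteoglycans, had 90.0 and 147 CPM in the core and 232 and 300.4 CPM in the invasion zone (log2 fold change -1.16, adjusted p = 0.115, and 0.00236 by DESeq2). With the replicate block, edgeR called VASH1 (adjusted p = 0.00665) and ADAMTS1 (adjusted p = 0.000133). Inhibitors and promoters of vessel growth both held members with values toward either zone. Among other angiopoietin-like genes, ANGPTL2 had 15.3 and 6.47 CPM in the core and 4.36 and 0.424 CPM in the invasion zone (log2 fold change 1.96, adjusted p = 0.189, and 0.00111 with the replicate block), and ANGPTL6 had 27 counts in the core and 15 in the invasion zone. ANGPT4, ANGPTL1 and ANGPTL7 were too low to be tested.

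A list of 14 hypoxia-responsive genes that do not encode secreted factors had 13 tested members. Like the other lists, it was chosen with earlier results of these data known. All 13 had a positive log2 fold change of core over invasion zone, from 0.40 to 4.19 with a median of 1.50. For all 13 both core libraries exceeded both invasion zone libraries, as for 30.0% of all genes tested. None was called by edgeR (adjusted p from 0.103 to 0.295). DESeq2 and edgeR with the replicate block each called 10 higher in the core, against 3.53% and 7.39% of all genes tested. CA9, a carbonic anhydrase, had 171 and 160 CPM in the core and 13.4 and 3.65 CPM in the invasion zone (log2 fold change 4.19, standard error 0.55). NDRG1 had 183 and 121 CPM in the core and 27.7 and 11.6 CPM in the invasion zone (log2 fold change 2.92, standard error 0.45). The core excess of VEGFA and PGF was above the median of this list, and those of ADM, STC1, ANGPTL4 and VEGFB lay below it.

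**Figure D4:**
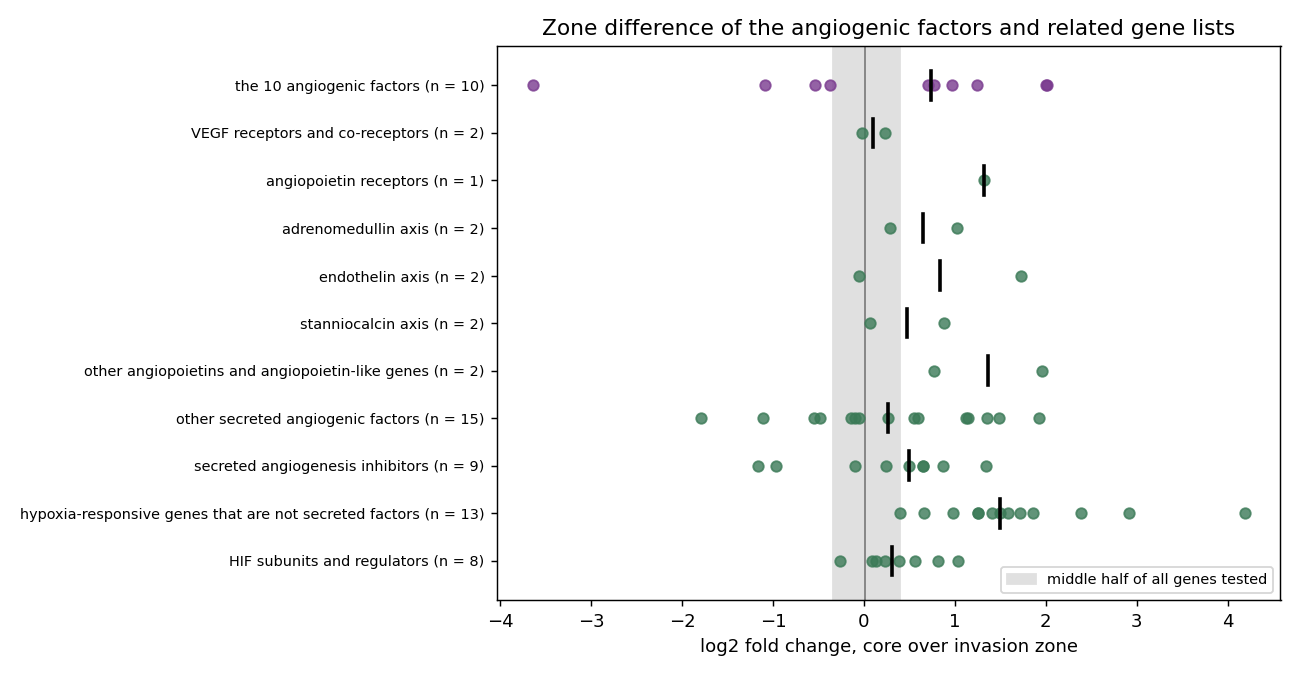
Log2 fold change of core over invasion zone for the 10 angiogenic factors (purple) and the tested genes of 10 related lists (green), with a black bar at each median and the range between the quartiles of all genes tested, -0.34 to 0.40, in grey. The factors lie on both sides of 0, whereas the hypoxia-responsive genes all lie at or above 0.40.

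The genes whose profile over the 4 libraries was closest to that of VEGFA were sought by the Euclidean distance of centred log2 CPM, among 9543 other genes with a mean of at least 10 CPM. The closest was GPNMB (distance 0.107), a membrane glycoprotein of melanocytes and lysosomes, with 290 and 250 CPM in the core and 92.9 and 42.2 CPM in the invasion zone. HIST1H2BC (0.157), YPEL3 (0.183), ORAI3 (0.191) and NREP (0.192) followed, with log2 fold changes between 1.82 and 2.13. None of the 5 factors that reached this level beside VEGFA was among them. PGF, whose fold change was close to that of VEGFA, lay under the minimum of 10 CPM and was not ranked, nor were ANGPT1, ANGPT2 and EDN1. ADM, the closest, held place 198, STC1 494, VEGFB 640 and ANGPTL4 2521, while VEGFC held place 7412.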

How the data were processed

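Bulk RNA was sequenced from 2 core and 2 invasion zone libraries of MV3 spheroids. Reads of ribosomal RNA had been removed by the authors (Bowtie), the others aligned to hg38 (STAR), and uniquely mapped ones assigned to genes (HTSeq-count), and the raw counts were deposited without normalization. The sources used here give no tool versions, annotation release or strand setting. Of 56306 rows, 2 repeats without counts were left out. CPM were computed on the total of each library, which ranged from 11789243 to 37591782 counts, and log2 fold changes came from edgeR 4.0.16 in R 4.3.3. Genes with at least 10 counts at the median library size in 2 libraries and 15 in total were kept, TMM factors were applied (0.985 to 1.009), and the quasi-likelihood test compared the zones without a replicate term. The standard error is the fold change over the root of the F statistic. DESeq2 1.42.0, limma 3.58.1, other filters and scalings, a replicate block and leaving out each library were alternatives. Lengths and positions came from GENCODE release 44 (GRCh38), which is of the same build. The members and lists were chosen with earlier results of these data known. By rule, the text names the 10 factors, the receptor genes with counts, up to 5 called genes per list and direction, or else the 2 with the largest change, and the 5 genes closest to VEGFA (prior count 0.5). Further genes, among them other secreted angiogenic factors, HIF1A and EPAS1, were named outside this rule after their values were seen, and not every gene of a list is named. Python 3.11.15 with matplotlib 3.10.9 made the figures.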

Additional observations from a re-analysis of the deposited data

How the results depend on the processing

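Where edgeR called 0 and 0 genes higher in the core and in the invasion zone, RLE or upper-quartile factors, at least 10 counts in every library, limma voom, the legacy quasi-likelihood fit, no fold change minimum and thinning to the smallest library also gave 0 and 0. There were 191 and 81 without a low count filter, 548 and 354 with DESeq2, 704 and 356 with the likelihood ratio test, and 995 and 495 at an unadjusted p. The pathway genes called were, in the same order, 10 and 0, 14 and 2, 15 and 2, and 18 and 2. With 1 library left out, where a zone with a lone library was assumed to vary like the other, 108 to 969 genes were higher in the core and 8 to 693 in the invasion zone (108 and 8 with core replicate 1 left out, 835 and 693 with core replicate 2, 969 and 533 with invasion zone replicate 1, and 275 and 152 with invasion zone replicate 2), and 8 to 19 and 0 to 3 pathway genes. The cause was not tested.

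With the replicate block, 1147 and 588 genes and 19 and 3 pathway genes were called. Deviations from the zone mean correlated at 0.564 across genes between libraries of like number, but with 2 pairs and no label that ties a number to a spheroid, the main values stayed without the block. EDN1 had no value with at least 10 counts asked of every library. None of the 10 factors changed direction under any alternative. Shifts were set against the standard deviation of the 2 log2 core to invasion zone ratios, 1 per replicate. Apart from leaving out a library, 4 of 89 values moved by at least that much, and with a library left out 25 of 40 did. These 4 were ANGPT1 with thinning and EDN1 with DESeq2, limma voom and thinning. For EDN1 this yardstick was small, since its invasion zone to core ratios were 12.9 and 12.1, while its levels differed between replicates by 1.69 and 1.60 on the log2 scale. With the canonical transcript as length, added after the data were seen, VEGFA ranked by its zone mean 1 instead of 3 in the core and 2 instead of 6 in the invasion zone, though its libraries overlapped those of its neighbours. With the longest transcript its ranks stayed. Depth limits ANGPT1, ANGPT2 and EDN1, which had 53, 43 and 7 counts in the core.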

Other observations

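Of 9 listed HIF subunits and regulators 8 were tested, 7 with a positive and 1 with a negative log2 fold change of core over invasion zone, a median of 0.31, and none called by edgeR. EGLN1, a prolyl hydroxylase that marks HIF for degradation, had 168 and 213 CPM in the core and 102 and 117 CPM in the invasion zone (log2 fold change 0.81, standard error 0.17, adjusted p = 0.112). The adjusted p of EGLN1 was 0.00773 by DESeq2 and 0.000239 by edgeR with the replicate block, with a change under the 2-fold minimum of a call. ARNT2, a partner subunit, had 22.1 and 21.1 CPM in the core and 14.0 and 6.28 CPM in the invasion zone (log2 fold change 1.04, adjusted p = 0.165, and 0.00701 with the replicate block). HIF1A, named after its values were seen, had 795 and 618 CPM in the core and 712 and 627 CPM in the invasion zone (log2 fold change 0.09, adjusted p = 0.811). EPAS1, another HIF subunit named after its values were seen, had 152 and 138 CPM in the core and 109 and 88.7 CPM in the invasion zone. The log2 fold change of EPAS1 was 0.56 (adjusted p = 0.138, and 0.00107 with the replicate block), under the 2-fold minimum of a call.

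The second stanniocalcin had values closer together. While STC1 was higher in both core libraries, STC2 had 1023 and 944 CPM in the core and 1055 and 834 CPM in the invasion zone (log2 fold change 0.07, standard error 0.19, adjusted p = 0.854). PAPPA, a protease that stanniocalcins inhibit, had 50.9 and 39.9 CPM in the core and 29.6 and 19.6 CPM in the invasion zone (log2 fold change 0.88, adjusted p = 0.137). Its adjusted p was 0.033 by DESeq2 and 0.000592 by edgeR with the replicate block, but its change was under the 2-fold minimum of a call. Whether the zone difference of STC1 differs from that of STC2 was not tested.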
